A study of Arabidopsis thaliana with 30 samples.

Results

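Norflurazon was compared with its control 24 h after it was given, in leaf 3 of Arabidopsis thaliana Col-0. The arrays were chosen by their titles: 3 of treated leaves and 3 of control leaves, all harvested at day 9 after stratification, or 6 of the 30 arrays of the series. The plants grew on MS medium, a mineral medium, at 22 °C in days of 16 h light and 8 h dark, and norflurazon was given at day 8. The label of the control gives the medium alone, and neither the dose of norflurazon nor a mock treatment is given in the sources used here. The same experiment holds 3 treated and 3 control arrays of day 10, taken 48 h after treatment, and a separate time course holds 3 arrays of untreated leaf 3 at each age from day 8 to day 13. Total RNA of each sample went to 1 AGRONOMICS1 array, a whole-genome tiling array of Arabidopsis. The arrays are labelled as biological repeats, the number of plants in each is not given, and p-values measure the spread between these arrays.

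Norflurazon is a bleaching herbicide. It blocks phytoene desaturase, the plastid enzyme that carries phytoene towards the coloured carotenoids, and a chloroplast that makes no new carotenoids in the light cannot protect its chlorophyll from photo-oxidation. Seedlings raised on the drug have long served to study retrograde signalling, in which the state of the plastid changes the transcription of nuclear genes, light harvesting genes foremost. Leaf 3 is a young leaf whose cells pass from division to expansion over the days sampled here, so that chloroplasts are still being built while the drug acts. Values below are the log2 levels deposited by the authors, a difference of 1 is a doubling, and each change is the mean of the treated arrays minus the mean of the controls with its standard error (SE).

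The control arrays of day 9 stood apart from the other 9 of the experiment. On the first principal component, which held 31.7% of the variance, they lay at 27.6, 32.6 and 39.0, the treated arrays of day 9 between -1.17 and 0.44, and the 6 arrays of day 10 between -18.0 and -14.9. The second component, with 16.6% of the variance, placed the treated arrays of both days between 5.92 and 21.6 and the controls of day 10 between -21.2 and -18.2. Arrays of 1 group correlated at 0.992 to 0.995, day 9 controls with treated arrays of day 9 at 0.986 to 0.991, and day 9 controls with day 10 controls at 0.984 to 0.987. The treated arrays of day 9 correlated with the day 10 controls at 0.989 to 0.991. Treatment and whatever else sets these 3 controls apart cannot be told apart in the day 9 comparison alone. Many groups or single genes are therefore also given against the day 10 controls, and the others against the day 9 controls only. The day 10 controls are 1 day older than the treated leaves and share no array with the day 9 controls.

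**Figure D1:**
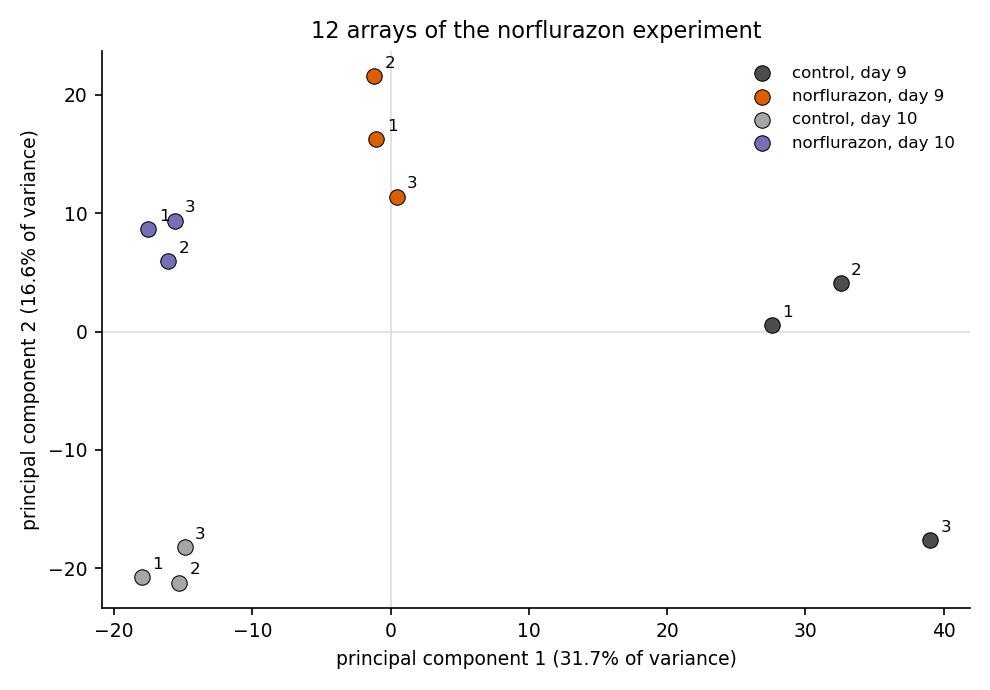
The 12 arrays of the norflurazon experiment on the first and second principal components of their log2 values, with 31.7% and 16.6% of the variance; each point is an array, coloured by group and numbered by repeat. The 3 controls of day 9 lie at 27.6 or above on the first component and all other arrays at 0.44 or below.

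At 24 h, 2248 of 30237 probe sets passed the test, an adjusted p under 0.05 in limma, which is 7.43% of those tested. Norflurazon leaves were higher in 1089 of them (3.6%) and lower in 1159 (3.83%), and the median change over all probe sets was -0.01. Most changes were small: 81 probe sets rose and 110 fell by at least 1. The groups did not overlap in 3329 probe sets that were higher (11.0%) and 3534 that were lower (11.7%), called or not. With the day 10 controls in place of those of day 9, 1510 probe sets were called (4.99%), 657 higher (2.17%) and 853 lower (2.82%). Leaving out the first or second treated array, or the third control array, brought the day 9 count to 1427, 1416 and 1492.

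The 10 largest rises among called genes with a symbol were led by PORB, a protochlorophyllide oxidoreductase of chlorophyll synthesis, and by DFR, an anthocyanin enzyme. They went on with the zinc finger gene SZF1, GSTF12 of anthocyanin transport, the ethylene synthesis gene ACS6, the mitochondrial carrier gene DIC2, the stress-induced F-box gene FBS1, the peptide gene RTFL12, the anthocyanin regulator PAP1 and the ERF gene ORA47, with changes from 2.18 down to 1.48. The 10 largest falls were led by SEN1, a gene induced in darkness and senescence, at -4.61, and by BT2, a BTB-TAZ scaffold gene of the sugar response, at -2.52. The others were the small heat shock genes HSP17.6A and HSP17.4, the phase change factor SPL3, the cytokinin response factor CRF6, the late embryogenesis abundant gene SAG21, WRI4 of cuticular wax synthesis, NAC044 and the thioredoxin-like gene CXXS1, down to -1.67.

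The largest rise of any probe set belonged to a locus without a symbol in the reference table, AT2G32210, chosen after its values were seen. It read 2.3, 4.17 and 2.62 in the day 9 controls and 6.04, 6.97 and 6.03 in the treated arrays, a change of 3.32 (SE 0.56, adjusted p = 0.00401). At day 10 it was again higher, by 2.66, which missed the threshold (adjusted p = 0.0569), and against the day 10 controls the treated arrays of day 9 were higher by 3.19 (adjusted p = 0.00716). The largest fall of a locus without a symbol, AT2G04050, went from 6.44, 5.68 and 6.24 to 3.06, 3.12 and 3.20, a change of -2.99 (SE 0.16, adjusted p = 7.88e-06), while its day 10 controls averaged 2.58 and its day 10 treated arrays 2.51. So the day 9 controls were the only group of the 4 in which this locus was high.

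**Figure D2:**
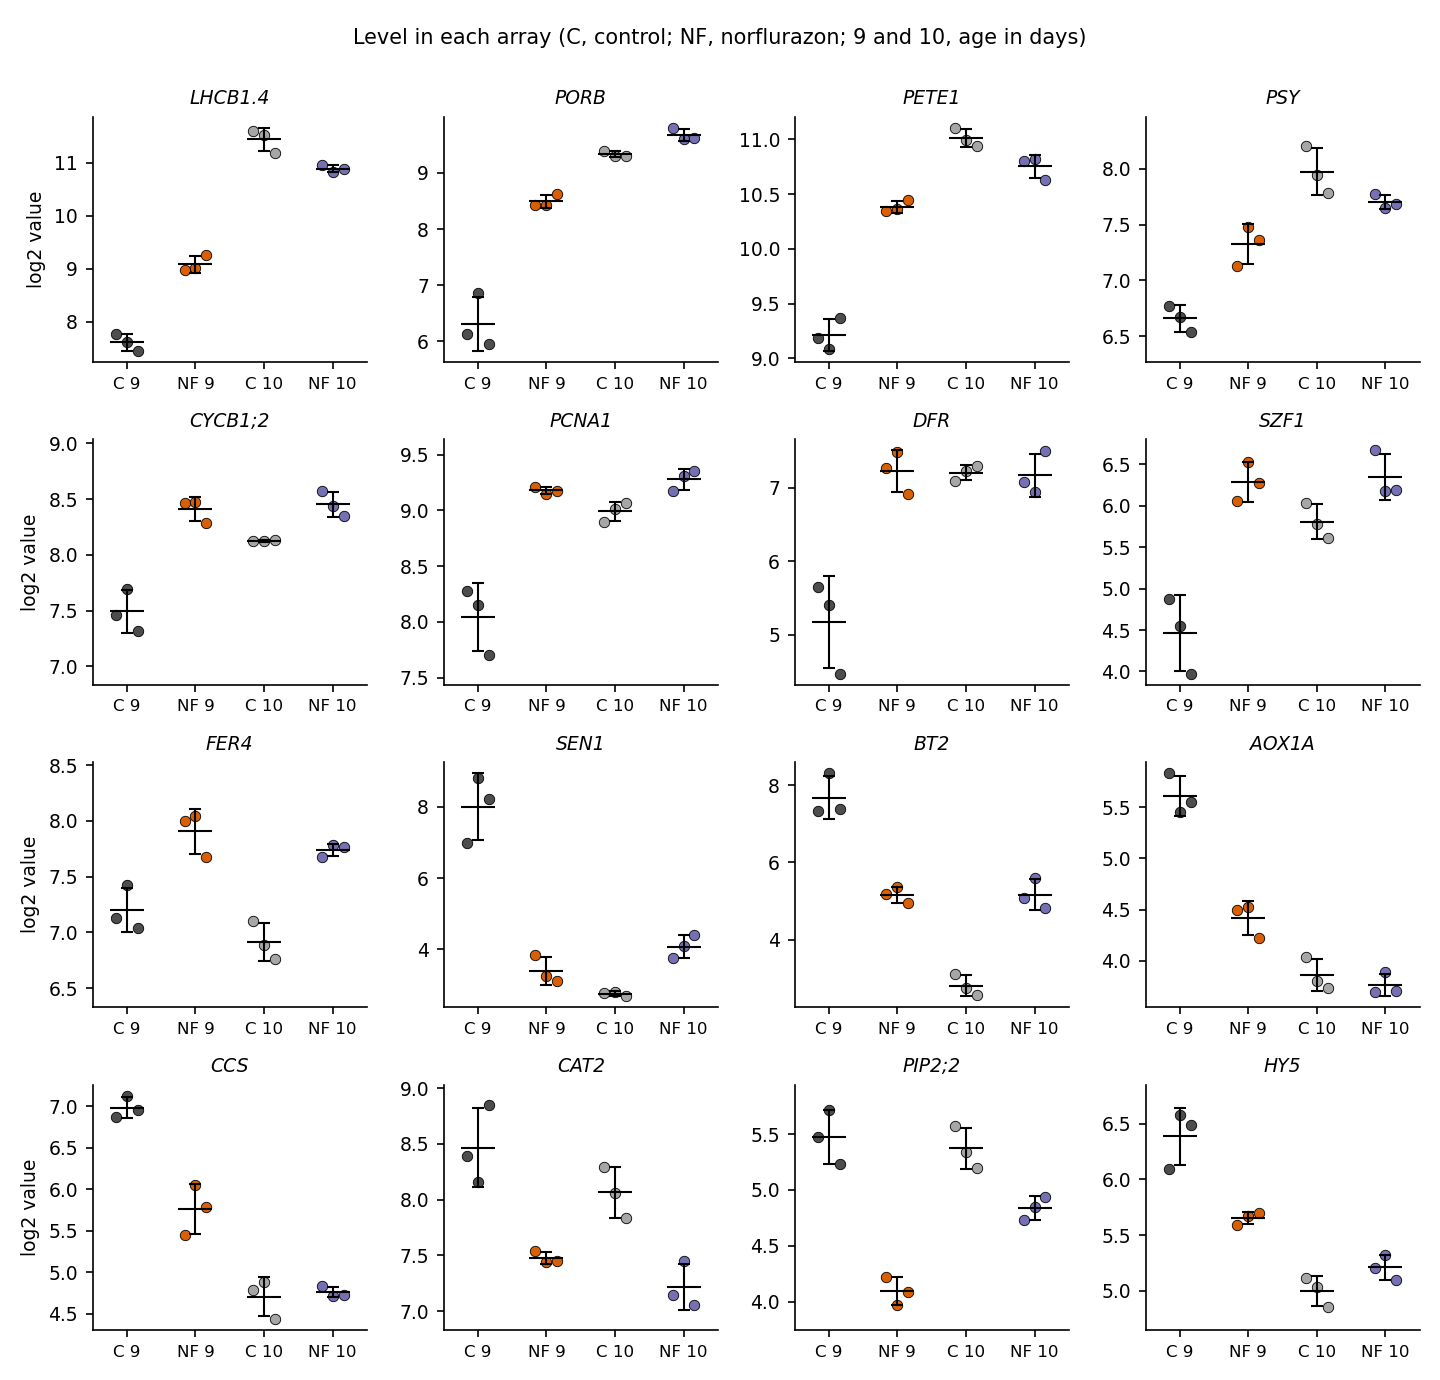
Log2 level of 16 genes in each of the 12 arrays, in control (C) and norflurazon (NF) leaves of days 9 and 10; points are arrays, horizontal bars the mean of 3 and vertical bars 1 SD, and each panel has its own axis. The treated arrays of day 9 lie above the day 9 controls and below the day 10 controls for LHCB1.4, PORB, PETE1 and PSY, and below both controls for CAT2 and PIP2;2.

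The transcript of the drug's target did not pass the test. PDS3, phytoene desaturase, read 6.53, 6.41 and 6.49 in the day 9 controls and 6.40, 6.55 and 6.54 in the treated arrays, a change of 0.02 (SE 0.08, adjusted p = 0.925). Of 25 genes of the MEP and carotenoid pathways, 4 rose and 1 fell, with a median of 0.02, beside 3.6% and 3.83% of all probe sets. The risers stand upstream of the block, but so do ISPD, ISPE, ISPF, ISPG and ISPH, which were not called. PSY, phytoene synthase, the entry enzyme of the pathway, went from 6.77, 6.67 and 6.53 to 7.13, 7.48 and 7.36, a change of 0.66 (SE 0.12, adjusted p = 0.0053). The groups did not overlap, yet all 3 treated arrays lay below the day 10 controls at 8.20, 7.94 and 7.78. GGPS1, which makes the precursor of phytoene, rose by 0.62, and DXS and DXR, the first enzymes of the MEP pathway, rose by 0.33 and 0.34. CCD1, a carotenoid cleavage enzyme, fell by 0.43. Against the day 10 controls 4 members were lower and none higher, PSY among them at -0.65 (adjusted p = 0.0082), and PDS3 was at -0.03.

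Genes of chlorophyll synthesis rose together against the day 9 controls. Of 31 tetrapyrrole genes 14 were higher and none lower, 28 had a positive change, and the median was 0.24 beside -0.01 over all probe sets. PORB read 6.13, 6.86 and 5.96 in the controls and 8.43, 8.43 and 8.63 in the treated arrays, a change of 2.18 (SE 0.18, adjusted p = 8.53e-05). Every treated array was above every day 9 control, and all 3 were below the day 10 controls at 9.39, 9.31 and 9.30. Further rises included HEMC, porphobilinogen deaminase, by 0.93, HEMF1, a coproporphyrinogen oxidase, by 0.80, PORC by 0.79, and HEMA1, glutamyl-tRNA reductase at the start of the pathway, by 0.47 (adjusted p = 0.0163), a call lost without the second or the third treated array or the second control. GUN5, the Mg-chelatase subunit known from norflurazon screens, was at 0.20 (adjusted p = 0.214) and GUN4 at 0.23 (adjusted p = 0.143). PORA, whose level in the dimmer group was at or below the median of all probe sets, was at 0.14 (adjusted p = 0.725). Set against the day 10 controls, 7 of the 31 were lower and none higher, with a median of -0.21.

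Light harvesting genes showed the same order of the groups. Of 16 members 10 rose and none fell at 24 h, with a median of 0.42, and the mean level over the members was 9.97 ± 0.09 (SD, n = 3) in the day 9 controls and 10.4 ± 0.07 (SD, n = 3) in the treated arrays. LHCB1.4, an antenna protein of photosystem II, read 7.77, 7.61 and 7.45 in the controls and 8.98, 9.00 and 9.26 in the treated arrays, a change of 1.47 (SE 0.12, adjusted p = 8.53e-05). In the day 10 controls it read 11.61, 11.53 and 11.20, so that the treated arrays of day 9 lay above the controls of their own day and below those of day 10 with no overlap. LHCB4.2 rose by 0.82, LHCB6 by 0.73 and LHCA2 by 0.65, whereas LHCB2.3 was at 0.30 (adjusted p = 0.272) and LHCB7 at -0.45 (adjusted p = 0.086). Against the day 10 controls 13 of the 16 were lower and none higher, with a median of -0.60, LHCB1.4 at -2.37 (adjusted p = 8.27e-06) and LHCB2.3 at -1.31 (adjusted p = 0.000448). The sign of the difference for this family therefore depended on which control was used, and the day 10 controls are also older than the treated leaves. In untreated leaves of the time course 10 of the 16 rose from day 9 to day 10 and none fell, with a median of 0.69. The parts of age and treatment in the difference from day 10 were not tested.

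Of 32 nuclear photosystem and electron transport genes, 21 rose and 1 fell, with a median of 0.44, and 30 had a positive change. Without the second treated array 13 rose and without the second control 12. PETE1, a plastocyanin, read 9.18, 9.09 and 9.37 in the day 9 controls and 10.35, 10.36 and 10.45 in the treated arrays, a change of 1.17 (SE 0.09, adjusted p = 5.64e-05). PSBQ-2 of the oxygen-evolving complex rose by 1.11 and PSBS, which dissipates excess light as heat, by 1.08. The member that fell was PGR5 of cyclic electron flow, at -0.46. With the day 10 controls as reference 17 were lower and none higher, with a median of -0.40; PETE1 was at -0.63 (adjusted p = 0.002) and PSBS at -0.25 (adjusted p = 0.215).

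Of 18 Calvin cycle and carbonic anhydrase genes, 10 rose and 1 fell at a median of 0.31. When any 1 treated array or the second control was left out, 3 to 5 rose. HCEF1, the plastid fructose bisphosphatase, went from 7.52, 7.32 and 7.67 to 8.22, 8.22 and 8.15, a change of 0.69 (SE 0.12, adjusted p = 0.00405). RBCS1A, the main Rubisco small subunit, was at -0.04 (adjusted p = 0.871), with a control mean of 14.13 near the top of the scale. CA1, a plastid carbonic anhydrase, read 8.17, 7.51 and 9.51 in the controls and 9.09, 8.99 and 9.35 in the treated arrays, so the controls spread from below to above the treated arrays and the change of 0.75 did not pass (adjusted p = 0.304). Without the third control it was 1.30 and passed (adjusted p = 0.00651). Against day 10, 6 members were lower and none higher, at a median of -0.33, and CA1 was at -1.57 (adjusted p = 0.0326).

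Of 21 light and retrograde signalling genes none was called higher and 4 were called lower, with a median of -0.04. Over all probe sets 3.6% were higher and 3.83% lower, so a list of this size would hold few calls at that share. HY5, a bZIP factor of light signalling, read 6.09, 6.58 and 6.49 in the day 9 controls and 5.59, 5.67 and 5.70 in the treated arrays, a change of -0.73 (SE 0.12, adjusted p = 0.00328). Its homologue HYH fell by 0.55, the GATA factor GNC by 0.47 and the B-box factor BBX21 by 0.42. The groups of HY5 did not overlap, but the day 10 controls, at 5.11, 5.04 and 4.85, lay lower still, and against them HY5 was higher by 0.65 (adjusted p = 0.00902). GUN1, the plastid pentatricopeptide protein of retrograde signalling, was at 0.15 (adjusted p = 0.305).

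Within this list are the GLK factors, which drive light harvesting and chlorophyll genes. GLK1 read 5.34, 4.97 and 5.49 in the day 9 controls and 5.66, 5.50 and 5.83 in the treated arrays, a change of 0.40 that missed the threshold (adjusted p = 0.125). In the day 10 controls it read 7.97, 7.90 and 7.64, above all 6 arrays of day 9, and in the treated arrays of day 10 7.18, 7.13 and 6.94. Against the day 10 controls the treated leaves of day 9 were at -2.18 for GLK1 (adjusted p = 3.69e-05) and -0.83 for GLK2 (adjusted p = 0.00207), while against the day 9 controls GLK2 was at 0.40 (adjusted p = 0.0625), and passed with dim probe sets left out (adjusted p = 0.0332).

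Of 21 nuclear genes of plastid transcription and ribosomes 2 rose, PTAC16 by 0.75 and FSD3, an iron superoxide dismutase of the nucleoid, by 0.45 (not called without the second treated or the third control array), and SIGE, a light-responsive sigma factor, was at -0.27 (adjusted p = 0.0933). Of 17 genes of plastid division and protein import 4 rose, led by the division gene FTSZ2-2 at 0.58, of which 2 remained without the first or the third treated array or the third control, and 1 fell, the division ring gene PDV2 at -0.50. Over all probe sets 3.6% rose and 3.83% fell, and 9 of the 21 and 10 of the 17 genes had an unadjusted p under 0.05, beside 6002 of the 30237 probe sets. Among the 67 loci with chloroplast genome identifiers 1 was higher and 3 lower, with a median of -0.17 and 17 of 67 with a positive change. Their mean level was 6.06 ± 0.38 (SD, n = 3) in the controls and 5.87 ± 0.40 (SD, n = 3) in the treated arrays, a difference smaller than the spread between arrays. Against the day 10 controls 1 was lower and the median was -0.08.

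Rapid stress regulators and mitosis genes had the highest medians of the 36 gene lists. Of 25 stress regulators 13 rose and none fell, and the median was 0.50. Without the second treated array or the third control 8 rose. SZF1, a tandem zinc finger gene of the early stress response, read 4.88, 4.54 and 3.97 in the controls and 6.06, 6.54 and 6.27 in the treated arrays, a change of 1.82 (SE 0.22, adjusted p = 0.000614). ACS6, which makes the ethylene precursor, went from 5.62, 5.27 and 4.96 to 6.74, 7.10 and 7.07, a change of 1.68 (SE 0.16, adjusted p = 0.00019). Neither gene's groups overlapped. ERF4, ERF6 and ERF5, ethylene response factors, rose by 1.45, 1.30 and 1.03, and the cold response factors CBF1, DREB1A and CBF2 by 1.41, 1.37 and 1.23. ZAT10 and ZAT12, zinc finger genes known to answer high light, were at -0.22 (adjusted p = 0.652) and 0.39 (adjusted p = 0.298), and BAP1, an early marker of singlet oxygen, at 0.52 (adjusted p = 0.108), which passed without the first treated array (adjusted p = 0.0315).

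Fewer of these regulators differed from the older controls. Against day 10, 3 of the 25 were higher and none lower, with a median of 0.24. They were DREB1A at 1.41 (adjusted p = 0.00508), SZF2 at 0.73 (adjusted p = 0.0188) and CBF2 at 0.70 (adjusted p = 0.0459). DREB1A read 5.61, 5.02 and 4.64 in the day 9 controls, 6.53, 6.46 and 6.39 in the treated arrays and 5.43, 4.80 and 4.91 in the day 10 controls, so all 3 treated arrays lay above both controls. SZF1 was at 0.48 (adjusted p = 0.269) and ACS6 at 0.28 (adjusted p = 0.411).

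Antioxidant genes moved both ways. Of 19 members 6 rose and 3 fell. The 3 that fell serve the copper/zinc superoxide dismutases: CCS, the copper chaperone, read 6.86, 7.12 and 6.96 in the controls and 5.45, 6.06 and 5.78 in the treated arrays, a change of -1.22 (SE 0.15, adjusted p = 0.000691), CSD2, the plastid enzyme, changed by -0.87 and CSD1, the cytosolic one, by -0.68. The groups did not overlap for CCS or CSD2, and the day 10 controls were lower again, at 4.79, 4.89 and 4.44 for CCS, so that against them CCS was higher by 1.06 (adjusted p = 0.00191). FSD1, the iron superoxide dismutase, rose by 0.53 (adjusted p = 0.00694). The iron stores FER3, FER4 and FER1 rose by 0.79, 0.71 and 0.56, and the stromal ascorbate peroxidase SAPX by 0.58.

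Ferritins were higher against either control. FER4 read 7.13, 7.42 and 7.04 in the day 9 controls, 8.00, 8.05 and 7.68 in the treated arrays and 7.10, 6.88 and 6.76 in the day 10 controls, and the treated arrays lay above both. Against day 10, FER4 was higher by 0.99 (adjusted p = 0.00106), FER1 by 0.88 (adjusted p = 0.00146), FER3 by 0.54 (adjusted p = 0.021) and SAPX by 0.67 (adjusted p = 0.00452). FER1 lost its call at day 9 without the second treated array. APX2, the cytosolic ascorbate peroxidase induced by excess light, stayed near 2.49 in every group, at or below the median of all probe sets, with a change of 0.02 (adjusted p = 0.961).

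Calls in the photorespiration and alternative respiration lists stand beside 3.6% of all probe sets higher and 3.83% lower. CAT2, the peroxisomal catalase of photorespiration, read 8.39, 8.16 and 8.85 in the day 9 controls and 7.54, 7.45 and 7.45 in the treated arrays, a change of -0.99 (SE 0.17, adjusted p = 0.00409). The day 10 controls read 8.30, 8.06 and 7.84, again all above the treated arrays, though that difference of -0.59 did not pass (adjusted p = 0.0722). It was 1 of 2 called members among 11 photorespiration genes, the other being GLDP1, a glycine decarboxylase subunit, at 0.29, which was not called without the second or the third treated array or the first or second control. Among 9 genes of alternative respiration and mitochondrial stress 3 fell. NDA1, an alternative NADH dehydrogenase, went from 6.03, 6.07 and 6.46 to 5.18, 5.02 and 5.22, a change of -1.05 (SE 0.12, adjusted p = 0.000588), and was also lower against day 10, by -0.94 (adjusted p = 0.00123). AOX1A, the alternative oxidase, fell by 1.2 (adjusted p = 0.000243) but lay above the day 10 controls by 0.55 (adjusted p = 0.0228), and NAC013, a regulator of mitochondrial stress genes, fell by 0.52.

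Heat shock and xenobiotic detoxification lists held a few falls and no rise, beside 3.83% and 3.6% of all probe sets, so that lists of this size would hold few calls at the background share. Of 14 chaperone genes 3 fell, HSP17.6A from 5.67, 3.92 and 6.13 to 2.45, 3.70 and 3.19, HSP17.6II by 1.4 and HSP70 by 1.10. HSP17.6II was not called without the first or the third treated array or the second or the third control. The second control of HSP17.6A stood closer to the treated arrays than to the other controls, and the gene lost its call without the third control or the first treated array. Against the day 10 controls 1 of the 14 chaperone genes was higher and none lower, beside 2.17% and 2.82% of all probe sets. The median was 0.28 there and -0.07 against day 9. By the percentage of probe sets that lie lower, HSP17.6A stood at 32.2 to 63.7 in treated arrays and 5.75 to 21.2 in day 10 controls. Of 14 xenobiotic detoxification genes 1 fell, the cytochrome P450 gene CYP81D11 by 0.36 with its dimmer group at or below the median of all probe sets, and was not called without the first or second treated array or the first or the third control. Of 7 photoprotective light harvesting-like genes 1 fell, SEP2 by 0.49, a call lost without the first or the third treated array or the second or the third control. The early light-induced genes ELIP1 and ELIP2 were at -0.25 (adjusted p = 0.667) and -0.29 (adjusted p = 0.665), and against the day 10 controls they were higher by 1.04 (adjusted p = 0.0341) and 1.24 (adjusted p = 0.0256).

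Of 16 anthocyanin and flavonoid genes 5 rose against the day 9 controls and 1 fell. DFR, dihydroflavonol reductase, read 5.65, 5.40 and 4.47 in the controls and 7.26, 7.48 and 6.92 in the treated arrays, a change of 2.05 (SE 0.26, adjusted p = 0.000791). LDOX, the next enzyme, rose by 1.32, the glucosyltransferase UF3GT by 1.18 and the MYB activator PAP1 by 1.48, while the repressor MYBL2 fell by 0.85. DFR in the day 10 controls read 7.09, 7.23 and 7.29, so treated leaves of day 9 overlapped with them, and no member was higher against day 10. The early flavonoid genes F3H and FLS1 were at 0.01 (adjusted p = 0.978) and 0.22 (adjusted p = 0.478).

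**Figure D3:**
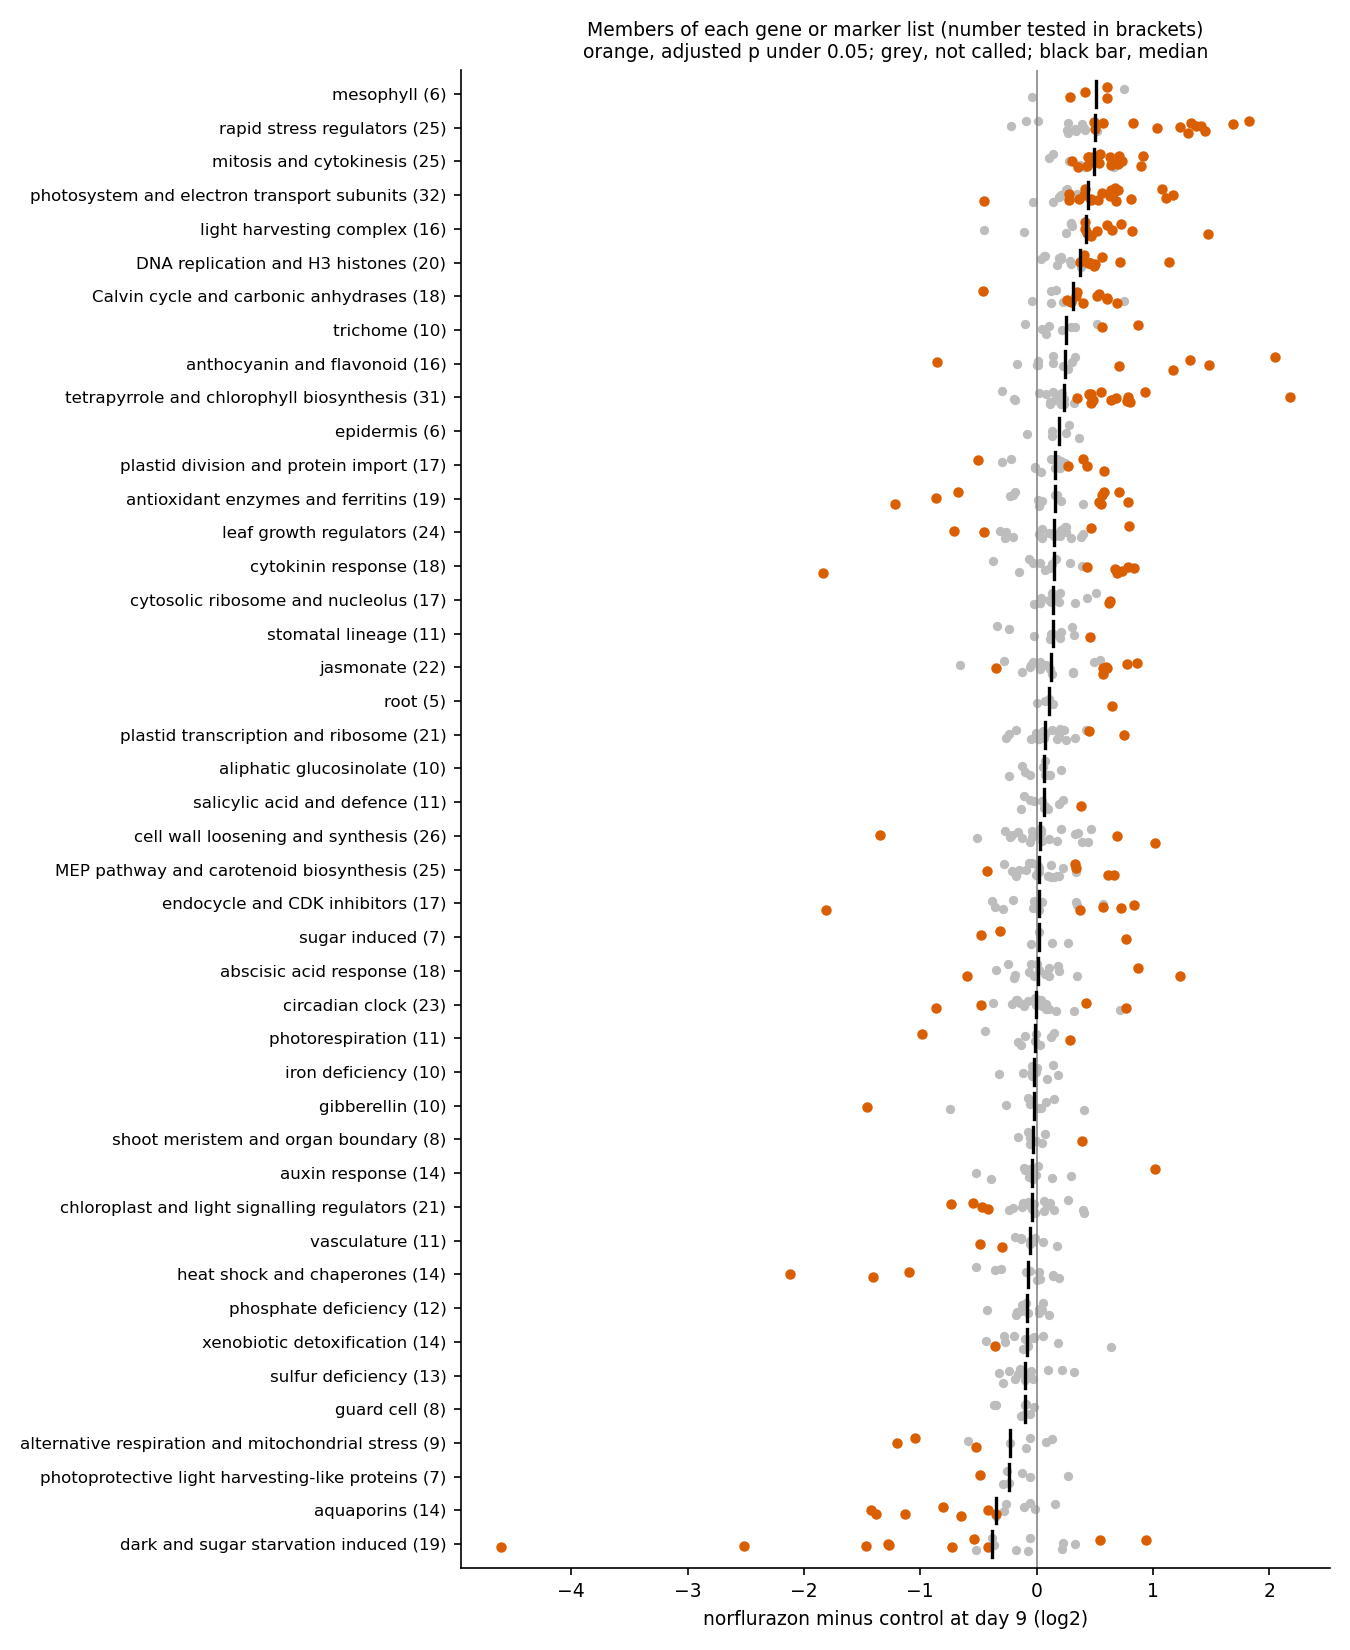
Change at day 9 (norflurazon minus control, log2) of each tested member of the 36 gene lists and 8 marker lists, ordered by list median; orange points are called at an adjusted p under 0.05, grey points are not, and black bars are medians. The medians run from -0.39 in the dark and sugar starvation list to 0.50 in the stress and mitosis lists and 0.51 in the mesophyll markers.

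SEN1 and BT2, which had the largest falls among genes with a symbol, belong to the list of genes that darkness and sugar shortage induce. Of its 19 members 8 fell and 2 rose, and the median was -0.39, the lowest of the 36 gene lists. Without the second control 5 fell. SEN1 read 6.98, 8.83 and 8.22 in the day 9 controls and 3.85, 3.26 and 3.1 in the treated arrays, a change of -4.61 (SE 0.36, adjusted p = 7.22e-05), which is 24.4-fold. BT2 went from 7.33, 8.31 and 7.39 to 5.18, 5.35 and 4.94, a change of -2.52 (SE 0.26, adjusted p = 0.000276). In the day 10 controls SEN1 read 2.76, 2.81 and 2.68 and BT2 3.11, 2.74 and 2.57, below the treated arrays in both cases. BT1 fell by 1.47, AKINBETA1, a subunit of the energy-sensing SnRK1 kinase, by 1.27, the dormancy-associated gene DYL1 by 1.27 and DIN10 by 0.73. BT5, a relative of BT2, rose by 0.94 and the bZIP factor BZIP53 by 0.54.

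Against the day 10 controls this list turned over: 5 members were higher and none lower, with a median of 0.21. BT2 was higher by 2.35 (adjusted p = 0.0005), DYL1 by 1.73 (adjusted p = 0.000619) and BT5 by 1.75 (adjusted p = 0.000897), whereas SEN1 was at 0.65 (adjusted p = 0.397). The time course may have been normalized apart, which the labels do not say, so only the rank of a gene within its array is set beside these levels. As the percentage of probe sets that lie lower on the array, SEN1 ranked at 89.3 to 96.2 in the 3 day 9 controls and at 55.7 to 66.0 in the treated arrays. It ranked at 12.8 to 37.1 in the 3 time course arrays of day 9, which have the same age and no treatment. BT2 ranked at 91.0 to 94.9 in the day 9 controls, 76.0 to 78.2 in the treated arrays and 60.4 to 65.9 in the time course of day 9. Some genes that rose are given in the same order. PORB ranked at 83.16 to 88.64, 94.98 to 95.78 and 92.58 to 96.98, and DFR at 71.75 to 80.69, 89.27 to 91.39 and 92.95 to 96.21. LHCB1.4 ranked at 91.77 to 93, 96.43 to 97.06 and 97.06 to 98.5. For these the day 9 controls ranked below the time course of day 9. ORA47 ranked at 63.86 to 69.27, 78.73 to 81.22 and 47.61 to 81.8, so its time course arrays spread over both groups.

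Cell cycle genes were higher in norflurazon leaves than in the day 9 controls. Of 25 genes of mitosis and cytokinesis 18 rose and none fell, all 25 had a positive change and the groups of 24 did not overlap, with a median of 0.50. Among all probe sets 3.6% were called higher, and 11.0% were higher without overlap of the groups. CYCB1;2, a mitotic cyclin, read 7.47, 7.70 and 7.32 in the controls and 8.46, 8.48 and 8.28 in the treated arrays, a change of 0.91 (SE 0.10, adjusted p = 0.000389). KN, the syntaxin of the cell plate, rose by 0.90 (adjusted p = 0.00261), and CYCB1;1 was at 0.37 without passing (adjusted p = 0.0503), though it passed under 5 alternatives, among them without the second control (adjusted p = 0.0168). Of 20 genes of DNA replication and histone H3, 10 rose and none fell, with a median of 0.38. PCNA1, the sliding clamp, went from 8.28, 8.15 and 7.70 to 9.21, 9.15 and 9.18, a change of 1.13 (SE 0.12, adjusted p = 0.000393). In whole-leaf RNA a larger share of dividing cells and more RNA per dividing cell cannot be told apart, and the same holds for every group of genes here.

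Against the older controls no call was made in these genes. In limma no member of either list passed in either direction against day 10, with 2 of each list at an unadjusted p under 0.05, and the medians were 0.05 and 0.03. CYCB1;2 was at 0.28 (adjusted p = 0.148) and PCNA1 at 0.19 (adjusted p = 0.503). In the time course 3 mitosis genes and 11 replication genes fell from day 9 to day 10 and none rose, PCNA1 by 0.75. In the controls of the norflurazon experiment PCNA1 instead went up by 0.95 over the same interval (adjusted p = 0.00044).

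Inhibitors of the cycle moved both ways. Among 17 endocycle and CDK inhibitor genes 4 rose and 1 fell, and 2 rose without the second treated array or the second control. SMR7, a SIAMESE-related inhibitor known to be induced by DNA damage and reactive oxygen, fell from 4.02, 4.29 and 5.30 to 2.94, 2.76 and 2.48, a change of -1.81 (SE 0.27, adjusted p = 0.00212), and since the treated mean was at or below the median of all probe sets the size is a lower limit. The reference table gives its name only as a synonym, so it is not among the 10 largest falls of genes with a symbol. KRP3, another inhibitor, rose by 0.84 and the mitotic activator CCS52B by 0.73. NAC044, known from the DNA damage response, fell by 1.69. The day 10 controls read 2.61, 2.19 and 2.65 for SMR7 and 2.74, 2.40 and 2.63 for NAC044, near the treated arrays and below the day 9 controls.

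Growth genes changed in small numbers, beside 3.6% of all probe sets higher and 3.83% lower, so that lists of this size would hold a few calls at the background share. Of 24 leaf growth regulators 2 rose, ANT, an AP2 factor that prolongs proliferation, by 0.80 and TCP10, a factor that promotes maturation, by 0.47. ARL fell by 0.71 and GRF8 by 0.46, and AN3, the coactivator of the GRF factors, was at 0.24 (adjusted p = 0.627). ANT was also higher against day 10, by 0.68 (adjusted p = 0.0293), where 5 of the 24 were higher and 3 lower. Of 17 ribosomal and nucleolar genes 2 rose, the nucleolar genes NOP56 by 0.63 and FIB2 by 0.62, neither of them called without the first or second treated array or the second or the third control. ARL kept its call only without the second control among the 6 fits that leave out an array. Of 26 cell wall genes 2 rose, EXPA15 by 1.02 and EXPB3 by 0.69, and 1 fell, the xyloglucan endotransglucosylase XTH15, from 5.11, 4.79 and 5.42 to 3.78, 3.81 and 3.69. XTH15 was lower against day 10 too, by -1.08 (adjusted p = 0.0161). The expansin EXPA8 was at -0.52 against day 9 (adjusted p = 0.151; 0.0233 without the second control) and at -1.03 against day 10 (adjusted p = 0.0104).

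Aquaporins, the water channels of expanding cells, were lower against either control. Of 14 members 7 fell and none rose at day 9, with a median of -0.35, and 3 or 4 fell without the second or the third treated array or the third control. Against day 10, 12 were lower and none higher, with a median of -0.74. PIP2;2 of the plasma membrane read 5.47, 5.72 and 5.23 in the day 9 controls and 4.22, 3.97 and 4.08 in the treated arrays, a change of -1.38 (SE 0.13, adjusted p = 0.000172). The day 10 controls read 5.57, 5.34 and 5.20, so the treated arrays lay below every control array of both days, and the difference from day 10 was -1.28 (adjusted p = 0.000302). PIP2;1 fell by 1.13, PIP1;1 by 0.65 and the vacuolar TIP2;2 and TIP2;1 by 1.43 and 0.80. TIP2;2 lost its call without the third treated or the third control array.

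Hormone lists differed in their share of calls, beside 3.6% of all probe sets higher and 3.83% lower. Of 22 jasmonate genes 6 rose and 1 fell, among the risers the synthesis enzyme AOS by 0.78 and the master regulator MYC2 by 0.86. Against day 10 none was higher and 6 were lower, with VSP2, a storage protein of the jasmonate response, at -2.11 (adjusted p = 0.000988). Of 18 cytokinin genes 6 rose (3 without the second treated array, when ARR7 was not called), with the type-A regulators ARR7, ARR15 and ARR16 at 0.84, 0.73 and 0.69 and CRF2 at 0.79. CRF6 fell from 6.05, 5.44 and 5.39 to 3.96, 3.89 and 3.54, a change of -1.83 (SE 0.19, adjusted p = 0.000297), toward the day 10 controls at 3.68, 3.17 and 3.34. Of 14 auxin genes GH3.3, an auxin-conjugating enzyme, rose by 1.01 and none fell, and of 10 gibberellin genes GASA1 fell by 1.46 and none rose.

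Of 18 abscisic acid genes the cold-regulated COR15B and COR15A rose by 1.23 and 0.87 and HB-12 fell by 0.60; COR15A was not called without the first or the third treated array or the second or the third control. Of 11 salicylic acid and defence genes ICS1, a salicylic acid synthesis gene, rose by 0.38, a call that was lost when any of the 6 arrays was left out. The calls of both lists stand beside 3.6% of all probe sets higher and 3.83% lower.

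No member of the sulfur (13), phosphate (12) or iron deficiency (10) lists or of the aliphatic glucosinolate list (10) passed the limma test at 24 h, with 2, 0, 1 and 1 members at an unadjusted p under 0.05. LSU2, a marker of sulfur shortage, was at -0.16 (adjusted p = 0.868). Relative to the day 10 controls 6, 5, 3 and 3 of these were lower and none higher, LSU2 by -2.42 (adjusted p = 0.00142) and the acid phosphatase gene PAP17 by -2.70 (adjusted p = 0.000585). Of 7 sugar-induced genes BZIP11 rose by 0.76 and the sugar carriers STP1 and STP4 fell by 0.48 and 0.31, STP1 with a call lost when any of the 6 arrays was left out. Of 23 clock genes 2 rose and 2 fell, RVE1 by 0.87 and LHY by 0.48, while CCA1 was at -0.18 (adjusted p = 0.212) and the evening gene PRR5 at 0.16 (adjusted p = 0.294). Calls in the sugar and clock lists stand beside 3.6% of all probe sets higher and 3.83% lower.

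Of the marker lists those of mesophyll and epidermis had high levels. The mean level was 9.99 ± 0.25 (SD, n = 3) in the day 9 controls and 10.4 ± 0.09 (SD, n = 3) in the treated arrays for the 6 mesophyll markers, and 8.29 ± 0.12 (SD, n = 3) and 8.47 ± 0.04 (SD, n = 3) for the 6 epidermal ones. The 8 markers of the meristem and organ boundary averaged 2.44 and 2.46 and the 5 root markers 2.98 and 3.18, near the array medians of 2.81 to 2.88. The 11 vascular markers averaged 3.03 and 2.92 and the 8 guard cell markers 3.47 and 3.32. Of the mesophyll markers 4 rose, all of them photosynthesis or photorespiration genes, and 1 or 2 rose when any 1 treated array or the second control was left out. Of 10 trichome genes 2 rose, GL1, the regulator that starts trichomes, by 0.56 and ETC1 by 0.87. Of 11 vascular markers 2 fell, the phloem genes APL by 0.48 and SUC2 by 0.30, the latter with a call that was lost, like that of ETC1, when any 1 of the arrays other than the third treated one was left out. Single calls fell on SPCH of 11 stomatal lineage genes (0.46), CUC3 of the boundary list (0.39) and WOX5 of the root list (0.65), and none on 8 guard cell genes, 1 of which had an unadjusted p under 0.05. The calls of CUC3 and WOX5 were lost when any of the 6 arrays was left out, and that of SPCH without the second treated array or the second or the third control. The part of a shift in cell types in the results above was not tested.

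**Figure D4:**
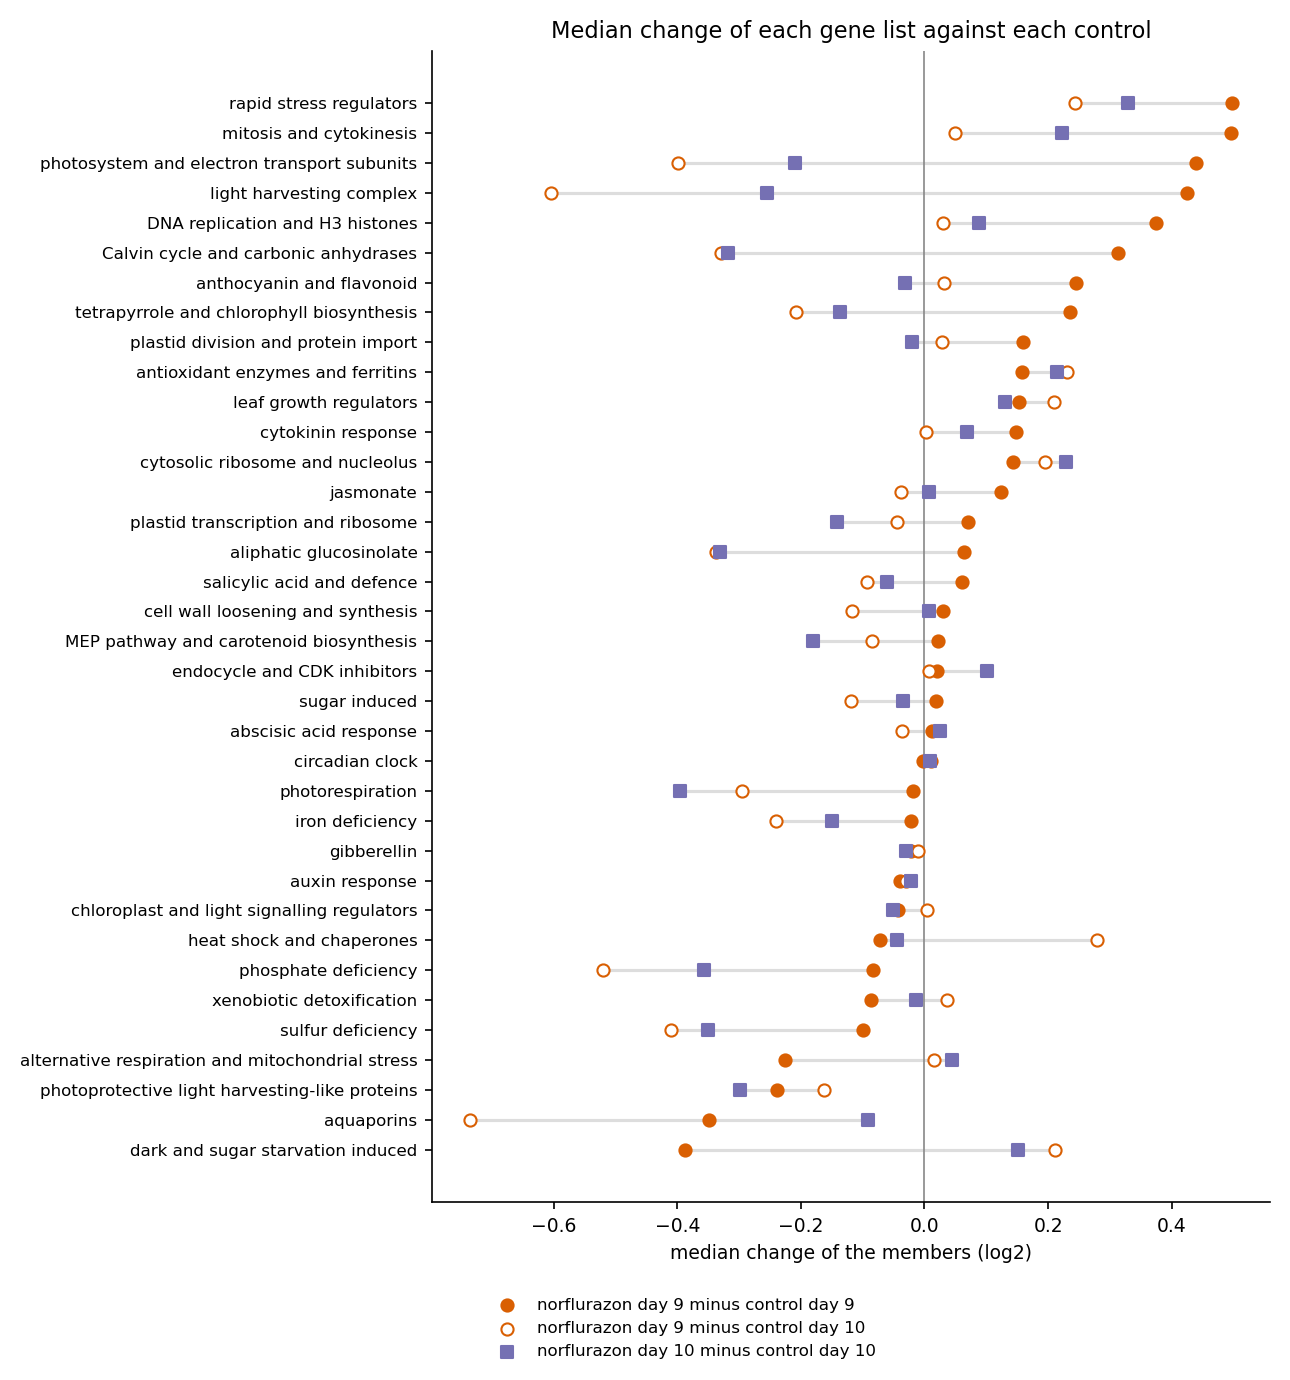
Median change (log2) of the tested members of each of the 36 gene lists, for norflurazon day 9 minus control day 9 (filled circles), norflurazon day 9 minus control day 10 (open circles) and norflurazon day 10 minus control day 10 (squares). Light harvesting genes stand at 0.42, -0.60 and -0.26, and aquaporins at -0.35, -0.74 and -0.09.

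The comparison at 48 h shares no array with that of norflurazon and control at day 9. Its controls are the day 10 controls that served above as the second reference, so it is not separate from those differences. There 233 probe sets passed (0.771%), 120 higher (0.397%) and 113 lower (0.374%), a split of 51.5% higher that became 35.0% after quantile normalization again and 35.2% after centring each array on its 75th percentile. When any 1 of the 6 arrays of day 10 was left out, the count was between 16 and 114. Of the 2248 calls of 24 h, 63 were called in the same direction at 48 h, 2.80% of the first list and 27.0% of the second, and 24 in the opposite direction. Across all 30237 probe sets the changes of both days correlated at r = 0.21 (Spearman 0.18), a description across probe sets that share arrays. The median list changes at 48 h were -0.26 for light harvesting, -0.21 for photosystems, -0.32 for the Calvin cycle, 0.33 for rapid stress regulators and 0.22 for mitosis. Of the stress regulators SZF2 was called higher at 48 h. No member of the other 4 lists was called in limma at 48 h, with 10 light harvesting, 16 photosystem, 11 Calvin cycle and 12 mitosis genes at an unadjusted p under 0.05.

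**Figure D5:**
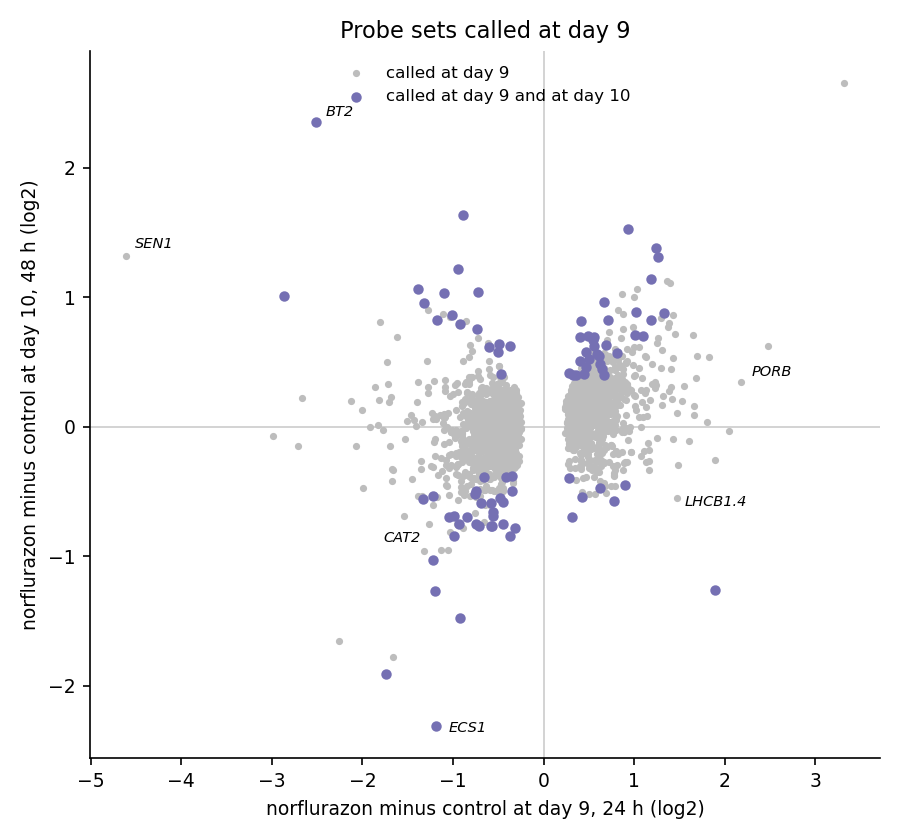
Change at 24 h (horizontal) against change at 48 h (vertical), both norflurazon minus control of the same day in log2, for the 2248 probe sets called at 24 h; each point is a probe set and purple points are called at both days. BT2, called at both days, and SEN1, called only at 24 h, lie at upper left, and CAT2 and ECS1 at lower left.

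Of the 63, the ferritins, CAT2 and some others are given here, chosen after their values were seen. FER4 was higher by 0.71 at 24 h and 0.82 at 48 h (adjusted p = 0.0177), and FER1 by 0.56 and 0.70 (adjusted p = 0.0259). CAT2 was at -0.99 and -0.85 (adjusted p = 0.0434 at 48 h), with treated arrays of day 10 at 7.14, 7.45 and 7.06 and their controls at 8.30, 8.06 and 7.84, again without overlap. NDA1 was at -1.05 and -0.70, LHY at -0.48 and -0.55, and ECS1, a cell wall protein gene, at -1.19 and -2.31. GL1 rose by 0.56 and 0.63, GH3.3 by 1.01 and 0.70, SZF2 by 1.33 and 0.88 and BT5 by 0.94 and 1.53. For these genes the test of a difference between the days did not pass, with adjusted p from 0.217 for ECS1 to 0.915 for GL1.

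BT2 was called in opposite directions. At 48 h it read 5.08, 5.61 and 4.81 in treated leaves and 3.11, 2.74 and 2.57 in controls, higher by 2.36 (adjusted p = 0.00604), and the effects of the days differed by -4.87 (adjusted p = 0.000252). The treated arrays of both days were close, with means of 5.16 and 5.16, while the control means were 7.68 and 2.81. GLDP1 and COL2, a CONSTANS-like gene, were higher at 24 h and lower at 48 h, where they were at -0.40 and -0.54.

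A test of the difference between the days called 589 probe sets (1.95%), 208 with the effect at 24 h above that at 48 h (0.688%) and 381 below it (1.26%), a split of 35.3% that became 48.3% after quantile normalization again and 50.3% after centring. The count was 387 without the first treated array of day 9, 365 and 392 without the second and the third treated array of day 10, and 359 without the second control of day 10. Light harvesting was among them: the LHCB1.4 effects, 1.47 at 24 h and -0.55 at 48 h, differed by 2.02 (adjusted p = 0.000285), and those of PETE1 by 1.43 (adjusted p = 0.0003). The 2 controls themselves differed at 3474 probe sets (11.5%), 1567 higher at day 10 (5.18%) and 1907 lower (6.31%), and the 2 treated groups at 594 (1.96%), 499 higher at day 10 (1.65%) and 95 lower (0.314%). The latter count was between 259 and 340 when any 1 treated array was left out. LHCB1.4 went up from day 9 to day 10 by 3.84 in the controls (adjusted p = 3.09e-08) and by 1.81 in the treated leaves (adjusted p = 0.000168).

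Untreated leaves of the time course give the changes of the same ages on arrays that share nothing with the norflurazon experiment. From day 9 to day 10 they changed at 2232 probe sets (7.38%), 718 higher (2.37%) and 1514 lower (5.01%), and the 32.2% higher became 53.7% after quantile normalization again and 63.6% after centring. The count was 749 without the third array of day 9, and 753 and 1036 without the second and the third of day 10. Of the 2248 calls at 24 h of norflurazon, 102 (4.54%) changed in the same direction in the time course and 300 (13.3%) in the opposite direction, and the changes correlated at r = -0.21 across probe sets. The day 10 minus day 9 change of the control leaves shared 529 calls in the same direction with the time course and 110 in the opposite one, which are 15.2% and 3.17% of the control's calls, with r = 0.23. In the time course photosynthesis genes rose over this day, 10 of 16 light harvesting and 28 of 32 photosystem genes with none falling, LHCB1.4 by 1.68 (adjusted p = 0.00262). CAT2 rose there by 1.76 (adjusted p = 0.00261) and SPL3 by 0.77 (adjusted p = 0.033). Both were lower in norflurazon leaves than in the day 9 controls of the same experiment. SPL3 read 5.07, 5.55 and 6.08 in these controls and 3.62, 3.57 and 3.54 in treated arrays (change -1.99, adjusted p = 0.000172). By rank within the array, both genes stood higher in the treated arrays than in the time course arrays of day 9. SPL3 ranked at 62.05 to 63.47 in treated arrays, 76.45 to 83.99 in day 9 controls and 25.3 to 37.97 in the time course of day 9. CAT2 ranked at 91.25 to 92.02, 94.33 to 96.35 and 75.82 to 87.88 in the same order.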

How the data were processed

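Total RNA of leaf 3 was measured on 30 AGRONOMICS1 arrays, 1 for each sample. The log2 values deposited by the authors come from RMA and the TAIR9 annotation, as the submitters' processing notes have it, and any later filter is not given in the sources used here. They cover 30237 probe sets for 29920 loci, all kept. An array has no read depth, so the precision is set by the number of arrays. Gene symbols came from a reference table on TAIR10.1, used for names only (29398 loci matched, 10512 probe sets with a symbol).

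The 12 arrays of the norflurazon experiment were fitted together with limma 3.58.1 in R 4.3.3 (1 coefficient per group, eBayes, 8 residual and 3.77 prior degrees of freedom), the time course apart. A call is a Benjamini-Hochberg adjusted p under 0.05 over all probe sets of a contrast. Changes in bulk RNA are relative to the array as a whole, since RMA normalizes arrays to each other. The deposited values of the 12 arrays do not share 1 distribution, with array medians from 2.81 to 2.88.

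The lists held 742 entries, of which 691 were tested, 10 were not measured and 41 did not match the reference name of their locus, among them the names of plastid-encoded genes, so loci with chloroplast identifiers are described as 1 group. For 10 members with several probe sets the brightest was used. The arrays, lists and genes were chosen with earlier results of these data known. Named genes are the 10 largest rises and falls among called genes with a symbol, groups that do not overlap and a higher group whose mean reached the median over all probe sets, up to 2 called members of each list, and 30 fixed genes; other list members named as examples were chosen after their values were seen. Promoter motifs were not analysed here, and no sequence or coordinate is given, as no genome was used.

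Repeat numbers did not pair arrays: after removal of group means, arrays of the same number correlated at -0.06 to 0.09 (18 pairs, 0 over 0.1). Alternatives were other scalings, a filter on dim probe sets, another variance model, averaged probe sets, only the compared arrays, a replicate block, each array left out in turn and, added after the data were seen, the controls of day 10.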

Additional observations from a re-analysis of the deposited data

Results flagged for a closer look

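The effect of norflurazon differed between 24 h and 48 h in limma's test of the difference between the days, which called 589 probe sets at an adjusted p under 0.05. Of the genes chosen for naming, 40 were among them, and for each the value in brackets is the effect at day 9 minus the effect at day 10 on the log2 scale. Among genes of photosynthesis and chlorophyll or carotenoid synthesis the effect at 24 h was the higher one for PORB (1.832), LHCB1.4 (2.024), LHCB4.2 (1.031), LHCB3 (0.7371), PETE1 (1.432), PSBQ-2 (1.303), HCEF1 (1.203), TIM (0.7493), GLDP1 (0.6826), HEMA1 (0.6387), HEMC (1.032), PSY (0.936) and GGPS1 (0.656). The same direction was found for the chloroplast regulator GLK1 (1.149) and the plastid genes PTAC16 (1.211) and FTSZ2-2 (0.6262).

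Among anthocyanin genes it was found for DFR (2.081), GSTF12 (1.774) and PAP1 (1.779), among stress and jasmonate genes for ACS6 (1.308), ORA47 (1.375) and AOS (1.136), and also for DIC2 (1.568), PCNA1 (0.8481) and the histone gene H3.1-AT3G27360 (0.7346). The effect at 24 h was the lower one for SEN1 (-5.927), BT2 (-4.872), SPL3 (-1.516), CRF6 (-1.845), SAG21 (-2.231), WRI4 (-1.898), NAC044 (-1.913) and CXXS1 (-1.258). It was also the lower one for HY5 (-0.9421), CCS (-1.276), CSD2 (-1.08), AOX1A (-1.103), STP1 (-0.8633), SMR7 (-2.022) and PIP2;2 (-0.8473). Both control groups enter this test, and they differed from each other at 3474 probe sets.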

How the results depend on the processing

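The 24 h count of 2248 fell to 1202 when only the 6 compared arrays were fitted, and the time course count of 2232 to 704. Leaving out dim probe sets gave 558 calls at 48 h and 929 for the difference between the days. Leaving out 1 array at a time gave 1416 to 2179 calls at 24 h, 16 to 114 at 48 h, 359 to 649 for the difference between the days, 2495 to 3138 for the control change, 259 to 340 for the treated change and 749 to 2266 for the time course. The causes were not tested, though fewer arrays leave fewer degrees of freedom. The count for the difference between the days already uses all 12 arrays, so no fit on compared arrays alone was made. The replicate block gave 2008, 173, 481, 3260, 467 and 2035 calls in the same order, and since the numbers do not pair the arrays these are given once. The counts under other scalings, another variance model and averaged probe sets lay within 1.5 times.

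With the day 10 controls, an alternative chosen after seeing the data, 7 list medians changed sign by more than the spread between arrays: light harvesting -0.60, photosystems -0.40, Calvin cycle -0.33, tetrapyrrole synthesis -0.21, dark and sugar starvation 0.21, stomatal lineage -0.11 and mesophyll -0.56. Under the other alternatives 0 list medians did so. Of 104 named genes 83 were called at 24 h. With the day 10 controls 11 of the 83 were called in the same direction, 45 had the opposite sign and 18 of these were called in it. Under the alternatives that keep the day 9 controls, 59 of the 83 were called in each, and the sign turned in 6 genes, all without a call, mostly when 1 array was left out. PDS3 ran from -0.012 to 0.069 over those fits, with -0.0048 without the second treated array. RBCS1A ran from -0.11 to 0.033, and was at 0.015 after quantile normalization. ELIP2 ran from -0.58 to 0.085, APX2 from -0.081 to 0.12 (-0.062 without the first control), LSU2 from -0.60 to 0.19 and AN3 from -0.049 to 0.45. With 3 arrays a group, small changes of dim probe sets are below what the arrays can show, and a probe set at or below the median of all has a change that is a lower limit.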
